A study of Mus musculus with 10 samples.

Results

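The S100 and annexin genes described here were S100a4, S100a6, S100a10, S100a11, S100a13, Anxa1, Anxa2, Anxa3, Anxa5 and Anxa6, 10 genes of the 30677 in an RNA-seq count table of mouse embryonic stem (ES) cells. The genes were chosen from measured values of these same libraries, namely their level in every library, their difference between treatments and the covariation of S100a10 with Anxa2 and of S100a6 with the rest. Those values are therefore given as a description, without p-values. Counts of genes that a fit across all genes called are given beside the share called among all genes and support nothing. The lists of other genes set beside them were also chosen with earlier results of these data known. Their counts of calls and their p-values are likewise description and support nothing. All 10 genes had a row in the table, and 9 passed a filter on low counts that left 20027 genes. The gene that did not pass was S100a4, with 1, 1 and 3 counts in the DMSO libraries A, B and C and 1, 0 and 1 in the MB-3 libraries, at or below a floor of 3 counts per library, so that no fold is given for it.

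All libraries came from TNGA cells, a line of mouse ES cells that expresses green fluorescent protein from 1 allele of Nanog, kept in serum with leukaemia inhibitory factor (LIF). Cultures received either the vehicle DMSO or 100 μM MB-3, an inhibitor of the histone acetyltransferase Kat2a (Gcn5), for 48 h, and every culture held DMSO at 0.1% of its volume. Each treatment had 3 RNA-seq libraries, marked A, B and C, of 46863700 to 51137896 counts in DMSO and 42270312 to 49334434 in MB-3. The cells were treated in triplicate, and the sources do not say whether the triplicates were set up on separate occasions, so p-values measure the spread between these libraries only. No library lacked Kat2a, so the comparison is of an inhibitor dose and not of gene loss, in 1 reporter line. The cells carried the marks of ES cells. Pou5f1 stood at 672 ± 35.4 CPM in DMSO and 676 ± 35.1 in MB-3 (CPM, counts scaled to the library size, mean ± SD, n = 3), and Sox2 at 451 ± 22.5 and 456 ± 5.72.

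S100 proteins are small proteins of vertebrates that bind calcium through EF-hand loops and then dock onto other proteins, mostly as dimers. Annexins use calcium in another way, as a bridge between a conserved protein core and acidic phospholipids, and so gather at the inner face of the plasma membrane and on endosomes and exocytic vesicles. The families meet in stable complexes, of which that of S100a10 with Anxa2 is the best known. S100a10 no longer binds calcium itself and stays in a form that can bind its partners, and Anxa2 protects its protein from degradation. S100a11 pairs in a similar way with Anxa1, and S100a6 binds several annexins. Many of these genes are higher in epithelial and mesenchymal cells than in pluripotent cells.

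On the map, the S100 genes sit together. The table held 10 S100a genes on chromosome 3 of GRCm38 within 3053610 bases, from 90511034 to 93564643. S100a13, S100a4 and S100a6 lie toward one end, with 6836 bases between the last 2, and S100a11 and S100a10 toward the other, with 28792 bases between them. The annexin genes are dispersed, Anxa1 on chromosome 19, Anxa2 on 9, Anxa3 on 5, Anxa5 on 3 but outside the S100 cluster, and Anxa6 on 11. Promoter sequences were found for 7 of the 10 genes, S100a4, S100a6, S100a11, S100a13, Anxa1, Anxa2 and Anxa5, in RefSeq on GRCm38.p6. The 250 bases before the start site are shown, 5′ to 3′ on the gene's own strand, so that the sequences can be read beside the values. They are given for 4 genes whose levels moved together and for S100a11, whose levels changed less. Over the 6 libraries Pearson's r of S100a11 with those 4 ran from 0.846 (S100a6) to 0.909 (Anxa5). Among the 4 it ran from 0.946 (S100a6 and Anxa5) to 0.978 (Anxa1 and Anxa5). Capitals mark matches, on either strand, to the TATA box (TATAAA), to the AP-1 motif (TGANTCA), to the TEAD motif (GGAATG), to the GC box (GGGCGG) and to the CCAAT motif. The regions are chr3:90612644-90612893 (+) for S100a6, chr19:20390672-20390921 (−) for Anxa1, chr9:69453433-69453682 (+) for Anxa2, chr3:36475888-36476137 (−) for Anxa5 and chr3:93520246-93520495 (+) for S100a11.
S100a6: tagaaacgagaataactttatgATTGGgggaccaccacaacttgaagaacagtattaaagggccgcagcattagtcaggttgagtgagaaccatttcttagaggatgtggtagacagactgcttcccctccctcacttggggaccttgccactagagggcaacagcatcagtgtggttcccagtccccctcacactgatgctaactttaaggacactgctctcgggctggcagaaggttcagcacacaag
Anxa1: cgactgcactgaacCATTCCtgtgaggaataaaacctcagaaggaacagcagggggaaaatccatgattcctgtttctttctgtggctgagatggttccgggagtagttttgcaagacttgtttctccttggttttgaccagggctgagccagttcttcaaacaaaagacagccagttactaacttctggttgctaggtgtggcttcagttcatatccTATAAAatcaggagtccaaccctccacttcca
Anxa2: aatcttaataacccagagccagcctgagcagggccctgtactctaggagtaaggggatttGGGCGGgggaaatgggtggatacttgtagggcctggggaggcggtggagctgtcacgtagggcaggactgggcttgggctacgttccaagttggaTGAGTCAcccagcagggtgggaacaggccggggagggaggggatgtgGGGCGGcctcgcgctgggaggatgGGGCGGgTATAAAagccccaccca
Anxa5: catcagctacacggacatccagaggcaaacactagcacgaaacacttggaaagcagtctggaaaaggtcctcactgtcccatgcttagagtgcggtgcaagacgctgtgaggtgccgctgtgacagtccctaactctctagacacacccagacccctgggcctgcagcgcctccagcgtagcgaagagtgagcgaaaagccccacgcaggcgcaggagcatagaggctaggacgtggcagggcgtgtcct
S100a11: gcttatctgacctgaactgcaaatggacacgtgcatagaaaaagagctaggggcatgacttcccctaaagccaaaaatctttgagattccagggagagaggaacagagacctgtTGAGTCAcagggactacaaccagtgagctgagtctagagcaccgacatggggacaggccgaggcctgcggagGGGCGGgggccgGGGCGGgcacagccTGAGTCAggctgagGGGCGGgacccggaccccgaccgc

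No motif among those searched was found in all of the S100a6, Anxa1, Anxa2 and Anxa5 promoters, though Anxa1 and Anxa2 both held a TATA box. In the full window of 300 bases, which runs 50 bases past the start site, the Anxa2 promoter held a TATA box, 1 AP-1 motif and 3 GC boxes, the Anxa1 promoter held a TATA box beginning 32 bases before the start and a TEAD motif near its far end, and the S100a6 promoter held CCAAT on the other strand. Anxa5 had 1 CArG box, the motif bound by serum response factor, 25 bases after the start and hence outside the stretch printed. S100a11 had 2 AP-1 motifs and 3 GC boxes. Over the 7 promoters, the TATA box was found in 3, the AP-1 motif in 2, the GC box in 2 and the TEAD motif, the CCAAT motif and the CArG box in 1 each. Of all 32851 promoters of the same length, 13.6% held a TATA box, 7.81% an AP-1 motif, 35.7% a GC box, 14.7% a TEAD motif, 37.4% the CCAAT motif and 1.63% a CArG box. The 7 windows also differed in CpG content, from 2 CpG in S100a4, 3 in Anxa1 and 6 in S100a6 to 13 in Anxa2, 14 in S100a13, 15 in S100a11 and 16 in Anxa5, against a median of 7 over all promoters.

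To compare levels between genes, CPM were divided by the exon length of each gene in kilobases. On that scale S100a10 was the highest of the 9 genes in vehicle-treated cells, at 65.7 ± 13.4 CPM per kb, and each of its DMSO libraries lay above every DMSO library of the next gene, S100a11, at 46.1 ± 4.65. S100a6 followed at 30.3 ± 14.7 and overlapped S100a11. Anxa6 was the annexin with the highest level, 19.8 ± 1.56 CPM per kb, and its libraries overlapped those of S100a6 but not those of Anxa2 at 10.0 ± 3.71. Anxa2, Anxa5 at 8.04 ± 1.35, S100a13 at 6.93 ± 0.237, Anxa3 at 4.86 ± 2.37 and Anxa1 at 1.95 ± 0.762 formed the lower end, with each overlapping the next. Under MB-3 the first place stayed with S100a10 at 40.8 ± 2.55, with S100a11 at 38.8 ± 1.82 overlapping it, while the mean of Anxa6, 20.1 ± 0.648, was above that of S100a6, 13.99 ± 6.37, with overlapping libraries.

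The first question was how these genes stood after 48 h of MB-3. The mean was lower in MB-3 for 8 of the 9, with S100a6 at 46.1%, Anxa3 at 43.2% and Anxa1 at 41.8% of the DMSO mean, and Anxa6 was at 101%. In all 3 letters the MB-3 library lay below the DMSO library for 8 genes, as in 20.3% of all genes tested, and every MB-3 library lay below every DMSO library for 6 genes, as in 7.37%. The median log2 fold change of the 9 genes was -0.71, with a range from -1.26 to 0.02, against a median of -0.0011 over all tested genes. With treatment as the only term, edgeR's quasi-likelihood test called S100a10 and Anxa5 lower at an adjusted p under 0.05, where it called 0.105% of all genes lower and 0.205% in either direction. With the letter as a block it called 7 of the 9 lower, all but S100a13 and Anxa6, where it called 3.9% of all genes lower. These counts restate the contrast on which the genes were picked, and nothing is read from them. In bulk RNA, fewer cells of an expressing type and less RNA per cell cannot be told apart.

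**Figure D1:**
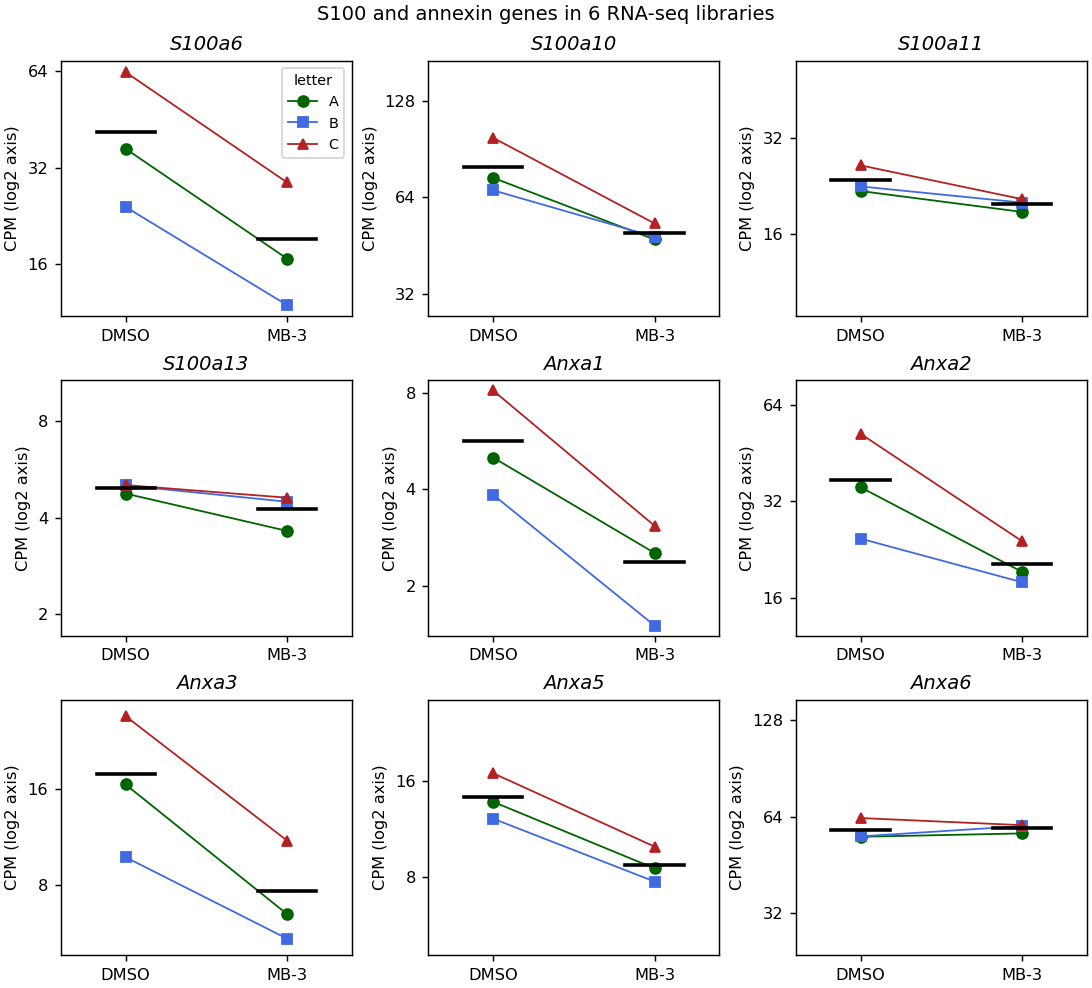
CPM (vertical axes, log2 scale, each spanning the same fold) of the 9 tested genes in DMSO and MB-3 libraries, with lines joining libraries of one letter and black bars at the means of 3 libraries. S100a6, Anxa1, Anxa2, Anxa3 and Anxa5 keep the order C, A, B in both treatments while moving down, and Anxa6 stays between 55.4 and 63.4 CPM.

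Among the S100 genes, S100a6 (calcyclin, first known as a gene induced when cells re-enter the cycle) differed most. It stood at 36.7, 24.1 and 63.6 CPM in the DMSO libraries A, B and C and at 16.7, 11.9 and 28.8 in the MB-3 libraries. The treatments overlapped, because MB-3 library C lay above DMSO library B, yet within each letter the MB-3 library was below its DMSO partner, by a log2 difference of -1.13 in A, -1.01 in B and -1.14 in C. The log2 fold change was -1.12 with an SE of 0.31 for treatment alone and -1.10 with an SE of 0.06 with the letter as a block. With treatment as the only term the value was -0.67 without DMSO library C and -1.53 without MB-3 library C.

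S100a10 (p11, the partner of Anxa2) had 73.5, 67.2 and 98.0 CPM in DMSO and 47.2, 48.1 and 53.0 in MB-3. Here the treatments did not overlap, and the MB-3 libraries lay much closer together than the DMSO libraries, with a coefficient of variation of 6.26% against 20.4%. The log2 fold change was -0.69 with an SE of 0.11. The difference within letters was largest in C, at -0.89, and smallest in B, at -0.48.

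S100a11, which binds annexins at membranes, and S100a13, which takes part in the export of growth factors that lack a signal peptide, were less different. S100a11 had 21.9, 22.6 and 26.3 CPM in DMSO and 18.8, 20.1 and 20.6 in MB-3. No MB-3 library reached the lowest DMSO library, and the log2 fold change was -0.25 with an SE of 0.08, or -0.16 without DMSO library C. S100a13 was at 4.76, 5.04 and 5.06 CPM in DMSO and 3.64, 4.49 and 4.62 in MB-3, again without overlap, with a log2 fold change of -0.22 and an SE of 0.13, or -0.12 without MB-3 library A. S100a4 (metastasin, a marker of fibroblasts) shares 302 bases of exon on the same strand with the annotated gene Gm42674, and reads in that stretch may have been assigned to neither. The pseudogene S100a11-ps had no more than 1 count in any library.

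The annexins of the list differed from each other in size of change. Anxa1 (lipocortin, which mediates part of the anti-inflammatory action of glucocorticoids) had one of the lowest levels in CPM, at 5.03, 3.85 and 8.14 in DMSO and 2.53, 1.50 and 3.08 in MB-3. Its treatments did not overlap, and its log2 fold change was -1.26 with an SE of 0.27 for treatment alone and -1.24 with an SE of 0.13 with the block. With all libraries this was narrowly the largest difference of the 9 genes. Anxa3 differed more than Anxa1 without DMSO library B (-1.51 against -1.47), MB-3 library B (-1.03 against -1.02) or MB-3 library C (-1.57 against -1.48). The value in MB-3 library B rested on 66 counts, the fewest behind any value of the 9 genes.

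Anxa3 had 16.5, 9.77 and 26.9 CPM in DMSO and 6.49, 5.44 and 11.01 in MB-3. As for S100a6, MB-3 library C exceeded DMSO library B, so the treatments overlapped although each letter moved down. The log2 fold change was -1.21 with an SE of 0.30, and -1.18 with an SE of 0.09 with the block. Without DMSO library C the first of these was -0.78. A second gene of the annotation, Gm42603, shares 112 bases of exon with Anxa3 on its strand and had at most 0.104 CPM.

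Anxa2, which links actin, membrane and S100a10 and helps assemble plasmin at the cell surface, was at 35.4, 24.5 and 52.0 CPM in DMSO and 19.3, 17.9 and 24.0 in MB-3. The highest MB-3 library lay just under the lowest DMSO library. Its log2 fold change was -0.87 with an SE of 0.20 and -0.83 with an SE of 0.07 with the block, and the first was -0.55 without DMSO library C. The letters differed in size, from -0.45 in B to -1.11 in C. An antisense gene, Gm16144, overlaps 98 exon bases of Anxa2 and reached at most 0.105 CPM.

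Anxa5, which binds exposed phosphatidylserine and in labelled form stains apoptotic cells, had 13.8, 12.2 and 16.9 CPM in DMSO and 8.54, 7.76 and 9.98 in MB-3. All MB-3 libraries were below all DMSO libraries, and the letters differed by nearly the same amount, -0.68 in A, -0.65 in B and -0.75 in C. The log2 fold change was -0.71 with an SE of 0.12.

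Anxa6, an annexin with a duplicated core that acts in endosome and cholesterol transport, was at 55.4, 55.5 and 63.4 CPM in DMSO and 56.7, 59.8 and 60.2 in MB-3. The treatments overlapped, and the letters differed in sign, with 0.03 in A, 0.11 in B and -0.07 in C. The log2 fold change was 0.02 with an SE of 0.07, and its sign turned when DMSO library A was left out (-0.01) or DMSO library B was (-0.01).

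**Figure D2:**
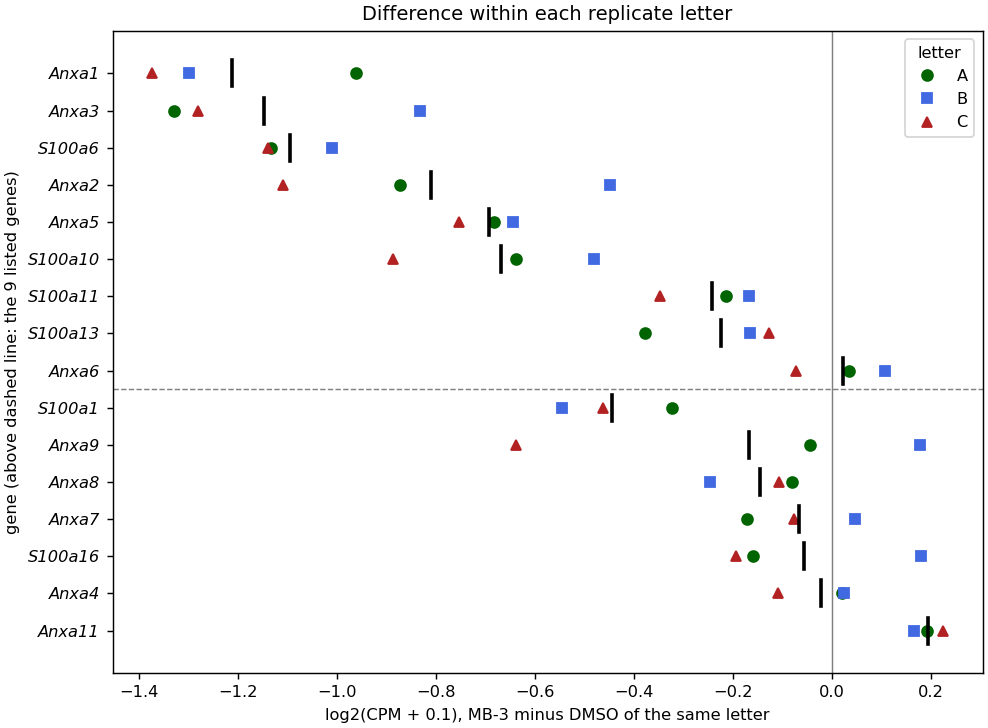
Difference in log2(CPM + 0.1) between the MB-3 and DMSO libraries of one letter (horizontal axis) for the 9 listed genes above the dashed line and 7 other S100 and annexin genes below it, with symbols for letters and bars for means. Of the listed genes 8 lie left of 0 in all 3 letters, and of the other 7 genes S100a1 and Anxa8 do, while Anxa11 lies right of 0 in all.

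The remaining members of both families give the setting for these values. Of 11 further S100 genes listed, 8 were in the table and 2 were tested. S100a1, a calcium sensor of muscle, had 3.22, 3.07 and 3.67 CPM in DMSO and 2.55, 2.07 and 2.64 in MB-3, without overlap. It fell with the letter as a block (log2 fold change -0.46, SE 0.14, edgeR adjusted p = 0.0419), beside 3.9% of all tested genes called lower. Without the block it was not called (edgeR adjusted p = 0.283). It is divergently transcribed from S100a13, with 42 bases between the annotated starts. S100a16 stood at 1.34 ± 0.106 CPM in DMSO and 1.30 ± 0.311 in MB-3, with a log2 fold change of -0.04 and an SE of 0.21. The other 6, S100a3, S100a7a, S100a14, S100b, S100g and S100z, had means under 1 CPM and were not tested.

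Of 7 other annexins, 5 were tested, and with the block 1 rose, beside 3.22% of all tested genes. Anxa11, which ties RNA granules to lysosomes and is a partner of S100a6, rose with the block, from 69.3, 74.5 and 73.7 CPM in DMSO to 79.1, 83.6 and 86.1 in MB-3 (log2 fold change 0.19, SE 0.05, edgeR adjusted p = 0.00819). The lowest MB-3 library exceeded the highest DMSO library, although with treatment as the only term the gene was not called (adjusted p = 0.236). Anxa7, at 109 ± 2.76 CPM in DMSO and 104 ± 7.89 in MB-3, differed by -0.07 with an SE of 0.06, and Anxa4, at 16.05 ± 0.980 and 15.8 ± 0.597, by -0.02 with an SE of 0.08. Anxa8 at 2.66 ± 0.295 and 2.41 ± 0.363 and Anxa9 at 1.53 ± 0.267 and 1.34 ± 0.223 had log2 fold changes of -0.15 and -0.18 with SEs of 0.16 and 0.21, and none of these 4 was called in either fit. Anxa9 shares 71 exon bases with Mindy1 on the other strand, which stood at 72.2 to 78.9 CPM, so its reads are uncertain. The signs of all 16 tested family genes were the same under 3 scalings of the libraries with and without the block. Under upper-quartile scaling without the block Anxa5 was not called.

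A second pattern lay between the letters. Letter C was the highest in both treatments for 9 of the 9 genes, as for 14.7% of all tested genes, and 5 genes, S100a6, Anxa1, Anxa2, Anxa3 and Anxa5, ran in the order C, A, B in both treatments, as did 6.06% of all tested genes. S100a6 in C exceeded B by 2.63-fold in DMSO and 2.41-fold in MB-3. For Anxa3 the folds were 2.75 and 2.02, and for Anxa1 2.12 and 2.05. Anxa2 differed between treatments in this respect, with 2.12-fold in DMSO and 1.34-fold in MB-3, and so did S100a10, with 1.46-fold and 1.10-fold, a difference that was not tested.

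In a fit with treatment and letter as terms, the log2 fold change of C against B was 1.34 for S100a6 (SE 0.07), 1.28 for Anxa3 (SE 0.11), 1.06 for Anxa1 (SE 0.16), 0.78 for Anxa2 (SE 0.09), 0.42 for Anxa5 (SE 0.09) and 0.35 for S100a10 (SE 0.07). These 6 genes were called higher in C, where 3.73% of all tested genes were. DESeq2 called 4 of them, without Anxa2 and Anxa5, and called 492 genes in either direction where edgeR called 1131. S100a11 at 0.13, Anxa6 at 0.10 and S100a13 at 0.02 were not called. The median of the 9 genes was 0.42, against -0.0014 over all tested genes. This pair of letters was also chosen with the values known. S100a6, Anxa1 and Anxa3 had the largest values of both contrasts among the 9 genes, and S100a11, S100a13 and Anxa6 the smallest. For S100a6 the step from B to C, 1.34, exceeded that from DMSO to MB-3 in size, -1.10 with the block.

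**Figure D3:**
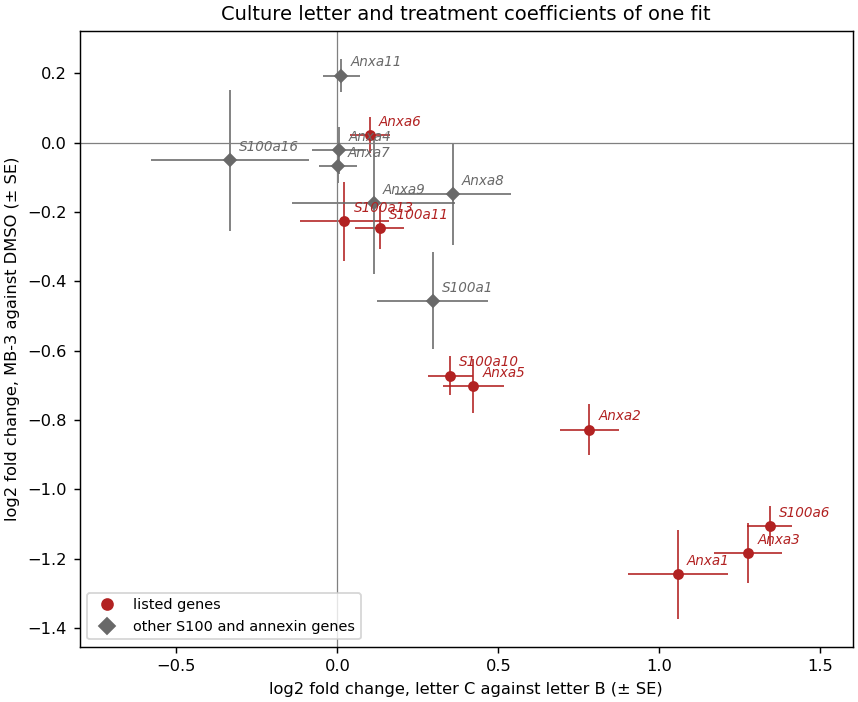
Log2 fold change of letter C against letter B (horizontal axis) and of MB-3 against DMSO (vertical axis) from one edgeR fit with both terms, with bars of 1 SE, for 9 listed genes and 7 other S100 and annexin genes. S100a6, Anxa3 and Anxa1 lie furthest right and lowest, at 1.06 to 1.34 and -1.10 to -1.24, and Anxa6 lies near 0 on both axes.

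The spread between libraries of one treatment can be set beside that of the differences within letters. For 8 of the 9 genes the SD of the 3 letter differences was smaller than the SD of the 3 DMSO libraries on the log2 scale, as for 45.0% of all tested genes. The SDs were 0.07 and 0.70 for S100a6, 0.06 and 0.24 for Anxa5, 0.27 and 0.73 for Anxa3 and 0.33 and 0.54 for Anxa2. The exception was S100a13, at 0.13 and 0.05. The SE of the block fit draws on the spread of all genes and does not measure the spread of these 3 differences. For Anxa2 that SE was 0.07 beside an SD of 0.33, and for S100a10 0.06 beside 0.20.

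The covariation of S100a10 with Anxa2 was the next point of the design. Across the 6 libraries, which share 2 treatments and 3 letters and so are not independent, log2(CPM + 0.1) of the pair had Pearson's r of 0.962 and Spearman's rho of 0.943, and r was 0.881 without the 2 libraries farthest from the median of S100a10. After subtraction of the treatment means r was 0.953, and that of S100a10 with the other tested members ran from 0.284 (S100a13) to 0.934 (Anxa6). Of the 10164 genes with a mean of at least 10 CPM, 0.502% were at or above Anxa2 in their r with S100a10. That share counts S100a10 itself and the listed genes of that level, Anxa2 included. Among the listed genes Anxa5 was closer to S100a10, at 0.981, and S100a11 about as close, at 0.958. S100a10 moved less than Anxa2, by a slope of 0.685 on the log2 scale. In CPM the ratio of S100a10 to Anxa2 was 2.08, 2.75 and 1.88 in DMSO and 2.45, 2.69 and 2.20 in MB-3. The ratio was highest in letter B and lowest in C in both treatments, where Anxa2 was lowest and highest. Its log2 mean was 1.14 ± 0.28 in DMSO and 1.29 ± 0.14 in MB-3, a difference of 0.14 that was smaller than the spread of the DMSO libraries. Leaving out 1 library at a time moved the difference between 0.03 (without DMSO library C) and 0.30 (without DMSO library B).

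**Figure D4:**
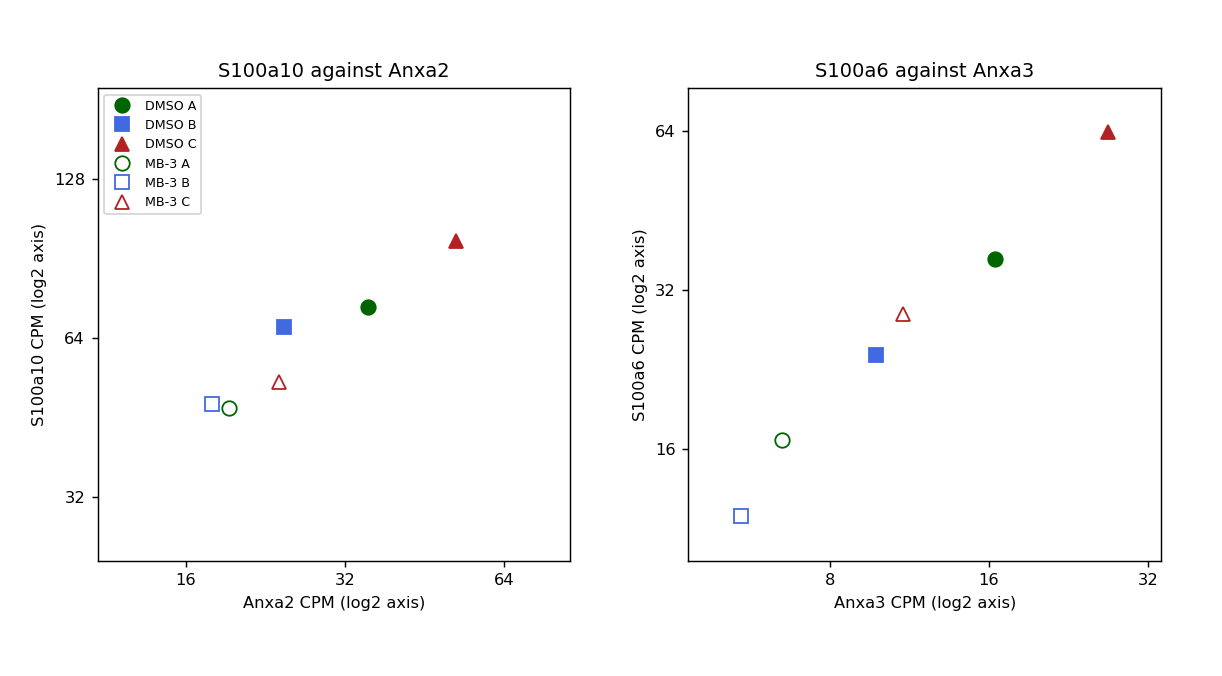
S100a10 against Anxa2 (left) and S100a6 against Anxa3 (right) in CPM on log2 axes of equal span, 1 point per library, filled for DMSO and open for MB-3. S100a6 and Anxa3 run in one line through both treatments (r of 0.992), while S100a10 spans 2.08-fold where Anxa2 spans 2.91-fold.

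S100a6 followed Anxa3 most closely, with r of 0.992 and rho of 1 over the 6 libraries, then Anxa1 (r of 0.970), Anxa2 (0.966), Anxa5 (0.946) and S100a10 (0.908). It was less like S100a11 (0.846), S100a13 (0.596) and Anxa6 (0.355). After subtraction of the treatment means r with S100a6 was 0.995 for Anxa5, 0.986 for Anxa3, 0.671 for Anxa6 and 0.659 for S100a11. Without the 2 farthest libraries it was 0.990 for Anxa3 and 0.755 for S100a10. Of 10164 genes with a mean of at least 10 CPM, 0.167% had an r with S100a6 at or above that of Anxa3, 2.81% at or above that of S100a10 and 24.8% at or above that of Anxa6. These shares count S100a6 itself and the listed genes of that level. The 15 pairs among S100a6, S100a10, Anxa1, Anxa2, Anxa3 and Anxa5 had r between 0.908 and 0.992.

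Outside the family, the 5 genes whose pattern was most like that of S100a6 were Slc39a8, a zinc and manganese transporter, F11r, a junctional adhesion molecule, Pkdcc, a secreted tyrosine kinase, Krt8, a keratin of simple epithelia, and Tagln, an actin-binding protein of smooth muscle, with r from 0.996 to 0.998. Their size of change was not alike. Tagln stood at 45.5 ± 31.2 CPM in DMSO and 17.2 ± 9.51 in MB-3 and Krt8 at 73.3 ± 44.2 and 31.5 ± 16.5, whereas F11r hardly moved, from 50.3 ± 1.54 to 48.1 ± 1.28. Those most like S100a10 were Prpf18, a splicing factor, Gpc3, a cell-surface proteoglycan, Lgmn, a lysosomal protease, H3f3b, which encodes histone H3.3, and Cyld, a deubiquitinase, with r from 0.989 to 0.997. Of these Gpc3 differed most, from 55.8 ± 5.84 to 42.4 ± 2.47 CPM.

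Proteins that S100 and annexin proteins bind or act with formed a list of 24 genes, of which 18 were tested. With treatment as the only term edgeR called 0 of them, with 4 at an unadjusted p under 0.05, which 10.9% of all tested genes reached, limma-voom called 0 and DESeq2 called 1, Myof. With the letter as a block 3 fell, beside 3.9% of all tested genes, and 15 did not pass the test. Capn2, the large subunit of a calcium-activated protease, fell from 23.2 ± 6.24 to 15.0 ± 3.0 CPM (log2 fold change -0.62, SE 0.07), and Myof, a membrane-repair protein of the ferlin family, from 23.7 ± 3.84 to 16.3 ± 1.05 (-0.53, SE 0.07). The third was Ahnak, a giant scaffold that binds the S100a10 and Anxa2 complex, from 121 ± 18.0 to 102 ± 10.4 (-0.24, SE 0.05). Dysf, a ferlin as well, had a log2 fold change of -0.38 and an edgeR adjusted p of 0.0613 with the block. The median log2 fold change of the 18 was -0.13. Genes for surface partners such as the plasminogen activators Plat and Plau and the receptor Ager had means under 1 CPM over the 6 libraries.

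Some markers of other cell types differed in the same directions as the listed genes. The marker lists too were chosen with earlier results of these data known, so nothing is read from their counts. Of 8 markers of simple epithelium, 5 fell with the block, beside 3.9% of all tested genes, and 6 were higher in C than in B, beside 3.73%. With treatment as the only term edgeR called 0 of the 8, with 4 at an unadjusted p under 0.05 (10.9% of all genes), and DESeq2 and limma-voom called 0. Without a filter on low counts edgeR called 2, Krt8 and Krt19, among 194 genes in all. Leaving out DMSO library B gave 4 (Dsp, Krt8, Krt18 and Krt19) among 520 genes, and leaving out MB-3 library C gave Krt19 among 62. Krt19 had 20.8, 10.7 and 37.1 CPM in DMSO and 6.19, 4.51 and 12.4 in MB-3, in the same order of letters as S100a6. Krt18 was at 81.1 ± 41.5 and 42.8 ± 17.0 CPM, Dsp at 34.6 ± 9.02 and 26.4 ± 4.57, and Cldn6 at 69.5 ± 12.1 and 61.6 ± 8.67. The summed level of the list was 390, 309 and 555 CPM in DMSO and 286, 263 and 368 in MB-3. Its most abundant gene, Epcam, which ES cells express as well, was at 119 ± 4.84 and 120 ± 4.55 and carried 33.0% of the sum, and the mean of Krt7 over the 6 libraries was under 1 CPM.

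Of 12 fibroblast-like markers, 8 were tested and 3 fell with the block (3.9% of all genes), Col1a1 (1.05 ± 0.254 to 0.418 ± 0.166 CPM), Col1a2 (1.87 ± 0.546 to 0.773 ± 0.278) and Acta2 (31.8 ± 8.54 to 22.2 ± 3.13). With treatment as the only term edgeR called 0 of them, with 4 at an unadjusted p under 0.05 (10.9% of all genes), limma-voom called 0 and DESeq2 called 1, Col1a2. Acta2 made up 74.2% of the summed level, which was 42.8, 32.8 and 52.5 CPM in DMSO and 30.0, 27.0 and 33.2 in MB-3, and 7 of the 12, namely Col1a1, Col3a1, Dcn, Lum, Postn, Twist2 and Fap, had a mean under 1 CPM over the 6 libraries. Of 7 trophoblast markers tested, only Eomes fell with the block (7.00 ± 2.84 to 4.34 ± 0.789 CPM), and 6 did not pass the test. Among those 6, Tfap2a had a higher mean in MB-3 (1.38 ± 0.121 to 1.80 ± 0.535 CPM, log2 fold change 0.38, SE 0.23). The means of Elf5, Gata3 and Hand1 over the 6 libraries were under 1 CPM. Eomes was not called with treatment as the only term, where edgeR called 0 of the 7, with 2 at an unadjusted p under 0.05 (10.9% of all genes), and DESeq2 and limma-voom called 0. Higher levels in C than in B were called for 2 of 8 fibroblast-like, 2 of 7 trophoblast and 4 of 8 extraembryonic endoderm markers, beside 3.73% of all tested genes. The same call was made for 5 of 18 partner genes and 1 of 25 other EF-hand genes, of which 2 were called lower. It was made for 0 of 5 other annexins and 0 of 2 other S100 genes. The summed trophoblast level was 13.9, 12.1 and 20.5 CPM in DMSO and 12.6, 9.36 and 13.97 in MB-3.

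Of 8 extraembryonic endoderm markers tested, Col4a1 and Col4a2 fell with the block, from 16.1 ± 4.37 to 11.6 ± 2.72 and from 8.57 ± 2.41 to 5.82 ± 1.10 CPM, again beside 3.9% of all genes. Without the block edgeR called 0 of the 8, with both collagens under an unadjusted p of 0.05 (10.9% of all genes), and DESeq2 and limma-voom called 0. The defining factors Gata4, Gata6, Sox7, Sox17 and Foxa2 each had a mean under 1 CPM. The sum of that list, 162, 133 and 173 CPM in DMSO and 141, 130 and 157 in MB-3, was carried to 55.3% by Lamb1. Of the macrophage and blood markers only Cd68 was tested, and it was not called. Among 10 pluripotency markers, Tbx3 fell in both fits, from 67.6 ± 2.35 to 51.2 ± 1.79 CPM (edgeR adjusted p = 0.0243 without the block). That fit called 0.105% of all tested genes lower, and it did not call Tbx3 without DMSO library A or C or MB-3 library A or B. Utf1 rose with the block and 8 did not pass the test, where 3.9% of all tested genes fell and 3.22% rose with the block. The sum of the partner list was 1410, 1414 and 1457 CPM in DMSO and 1330, 1384 and 1354 in MB-3. That of the other EF-hand genes was 1529, 1588 and 1649 in DMSO and 1448, 1530 and 1541 in MB-3. For the other S100 genes it was 4.67, 4.59 and 5.45 in DMSO and 3.82, 3.80 and 3.89 in MB-3. The sums of the partner, other EF-hand and other S100 lists were thus also highest in DMSO library C. The part of other cell types in the S100 and annexin values was not tested.

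**Figure D5:**
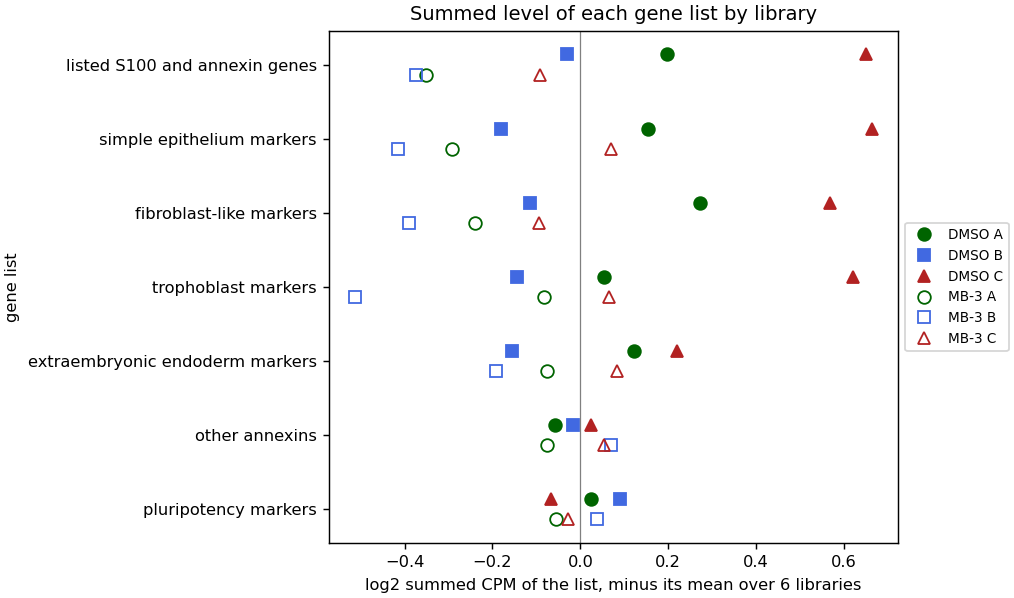
Summed CPM of each gene list in every library, as log2 minus the mean of the 6 libraries (horizontal axis), filled for DMSO and open for MB-3. The listed S100 and annexin genes and the markers of simple epithelium, fibroblasts, trophoblast and extraembryonic endoderm are highest in DMSO library C, and the other annexins and the pluripotency markers are not. The partner, other EF-hand and other S100 lists are not plotted, and their sums were also highest in that library.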

How the data were processed

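Raw counts per Ensembl gene in 6 RNA-seq libraries (single-end, poly(A)-selected RNA) were used as deposited. Per the labels and the study's methods, the authors trimmed the reads, aligned them to mm10 with Bowtie and counted them at exons with GenomicAlignments. Tool versions, the release of the gene annotation and whether strand was used in counting are not given in the sources used here. The H3K9ac peak lists of the series, positions on mm9 without a score, were not used here.

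The members and gene lists were chosen with earlier results of these data known. Identifiers were matched to GENCODE M21 on GRCm38 (30540 of 30677 genes had a symbol), and promoters to RefSeq by symbol. CPM (counts scaled to the library size) used TMM-scaled library sizes, so that 1 CPM stood for about 43 to 50 counts. Genes were filtered with filterByExpr and tested across all 20027 genes with edgeR 4.0.16 (estimateDisp, glmQLFit and glmQLFTest, R 4.3.3) with Benjamini-Hochberg adjustment over all of them, called at an adjusted p under 0.05. Treatment was the only term, and the letter was added as a block in a further fit, which also gave letter C against B. The sources do not say what libraries of one letter share, so the pairing by letter rests on the data. Deviations from the treatment means, across genes, correlated at 0.115 (A), 0.287 (B) and 0.232 (C) for libraries of one letter. For libraries of different letters the values were -0.230 to -0.0197. Deviations within a treatment sum to 0 for each gene, so these negative values are tied to the positive ones and are not separate evidence. Libraries of one treatment differed by more than sampling noise, and all 6 were kept. The top 10 genes held 8.26% to 9.84% of counts per library and mitochondrial genes 3.63% to 4.50%.

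Correlations used log2(CPM + 0.1) over 6 libraries. Named genes were all members, every other S100 or annexin gene tested, at most the 4 largest log2 fold changes of each other list and the 5 genes most like S100a6 and S100a10. Ahnak, Rcn1, Rcn2, Sri, Cldn6, Pou5f1, Sox2, Epcam, Lamb1, Plat, Plau Ager and other genes with a mean under 1 CPM were named after their values were seen. Alternatives were RLE and upper-quartile scaling, no filter on low counts, DESeq2 1.42.0, limma-voom (limma 3.58.1), the block, and leaving out each library in turn. Leaving out both libraries of a letter under the block was added after seeing the data.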

Additional observations from a re-analysis of the deposited data

How the results depend on the processing

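The median log2 fold change of the members stayed between -0.55 and -0.81 under every alternative run, and the signs of S100a6, S100a10, S100a11, S100a13, Anxa1, Anxa2, Anxa3 and Anxa5 did not change in any. Single values moved by over 1.5 times when 1 library was left out: without DMSO library C to -0.67 for S100a6, -0.78 for Anxa3, -0.55 for Anxa2 and -0.16 for S100a11, and without MB-3 library A to -0.12 for S100a13. The number of calls moved more. Against 41 genes and 2 members (S100a10 and Anxa5) with treatment as the only term, upper-quartile scaling gave 25 genes and 1 member, limma-voom 18 and 0 (2167 genes and 7 members at an unadjusted p under 0.05) and DESeq2 183 genes with the same 2 members. Testing without a filter on low counts gave 194 genes and 6 members, and the pairing by letter as a replicate block gave 1425 and 7. At an unadjusted p under 0.05 the first fit held 2182 genes. Leaving out 1 library at a time gave 0 to 520 genes and 0 to 6 members: 0 and 0 without MB-3 library A or B (1440 and 1716 genes and 7 members each at an unadjusted p under 0.05), 3 and 0 without DMSO library A, 5 and 1 without DMSO library C, 62 and 2 without MB-3 library C and 520 and 6 without DMSO library B. With both libraries of one letter left out, a check added after seeing the data, the block gave 939 genes and 7 members without A, 912 and 7 without B and 1037 and 6 without C, where S100a11 was not called. Calls in other lists moved as well in edgeR with treatment as the only term. Without a filter on low counts 2 fibroblast-like and 2 partner genes were called. Without DMSO library B 3 fibroblast-like, 3 partner and 2 extraembryonic endoderm genes were, with 1 trophoblast and 1 other EF-hand gene. The cause of these shifts was not tested. Anxa6 turned sign, to -0.0135 and -0.0116 without DMSO library A or B, with 0.0867 as its highest value when 1 library was left out, and to -0.0218 under the block without letter B. For letter C against B, DESeq2 called 492 genes in place of 1131, and 4 members (Anxa1, Anxa3, S100a10 and S100a6) in place of 6. The difference in the S100a10 to Anxa2 ratio stayed within the DMSO spread in every alternative but 1, at 0.30 without DMSO library B. S100a4 and 6 other S100 genes had counts too low to test.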

Other observations

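Calcium-binding proteins with EF-hands outside the S100 family formed a list of 27 genes, of which 25 were tested. With treatment as the only term edgeR, DESeq2 and limma-voom called 0 of them, with 6 at an unadjusted p under 0.05 in edgeR (10.9% of all tested genes), and with the letter as a block 5 fell and 20 did not pass the test, beside 3.9% of all tested genes called lower. Sparc, a secreted matrix glycoprotein, fell from 76.9, 64.2 and 113 CPM in the DMSO libraries A, B and C to 56.4, 55.4 and 69.0 in MB-3 (log2 fold change -0.46, SE 0.06 with the block), with the highest level in letter C in both treatments as for the listed annexins. Efhd2, an actin-binding protein, fell from 14.6 ± 1.00 to 11.5 ± 0.788 CPM. The other 3 were Rcn1 (45.6 ± 3.07 to 39.8 ± 1.20), Rcn2 (28.9 ± 2.53 to 24.6 ± 1.08), which are calcium-binding proteins of the secretory pathway, and Sri (16.01 ± 1.20 to 13.6 ± 0.788), the penta-EF-hand protein sorcin. The median log2 fold change of the 25 genes was -0.05.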
